A study of Mus musculus with 2 samples.

Results

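The 10 genes described here carry the canonical Wnt signal in the mouse embryonic kidney: the DNA-binding factors *Lef1*, *Tcf7*, *Tcf7l1* and *Tcf7l2*, the coactivator *Ctnnb1* (β-catenin), the feedback genes *Axin2* and *Dkk1*, and the amplifying axis of *Rspo3*, *Lgr4* and *Lgr5*. They were chosen by name for their place in the pathway. No measured value entered the rule, but earlier results of these data were known. All 10 were found among 16825 protein-coding genes that had open chromatin in both libraries. What was measured was chromatin accessibility, by droplet snATAC-seq, which counts in every nucleus the places where a transposase could reach the DNA. Whole kidneys of E15.5 embryos gave 1 library of each genotype. *Enl*-T1 kidneys were *Enl* flox-T1/+ *Wt1* GFPCre/+ and *Enl*-WT kidneys were *Enl* +/+ *Wt1* GFPCre/+. The flox-T1 allele switches, once Cre has acted, to an *Enl* (*Mllt1*) gene with a small insertion found in Wilms tumour, a childhood kidney cancer, and ENL is a reader of acetylated histones that works with the transcription elongation machinery. Cre came from the *Wt1* locus in both genotypes, so both groups carried the *Wt1* GFPCre allele. That driver acts in the nephron and stromal lineages, and the ureteric epithelium and the endothelium lie outside its main domain. The number of embryos behind each library was not stated in the labels or the study's methods.

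In canonical Wnt signaling a Wnt ligand binds a Frizzled receptor and an LRP co-receptor, which frees β-catenin from a destruction complex built on AXIN proteins. β-catenin then enters the nucleus, binds TCF and LEF factors and turns on their targets, among them *Axin2* itself. R-spondins bind LGR receptors and keep Frizzled on the cell surface, while DKK1 blocks the LRP co-receptor. In the kidney, Wnt9b from the ureteric bud maintains nephron progenitors and also starts their commitment, and Wnt4 and *Lef1* mark the first committed aggregates and renal vesicles. TCF7L1 is known mainly as a repressor of Wnt targets, and TCF7L2 can repress or activate.

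The *Enl*-WT library held 9472 nuclei with a median of 14789.5 counts, and the *Enl*-T1 library 12635 nuclei with a median of 8753. Counts are cut sites in peaks, and about 2 of them make 1 DNA fragment. Barcodes kept in both libraries numbered 149, or 1.57% and 1.18% of the libraries. Nuclei were clustered with the regions of these genes and of the pathway left out, and clusters were named from marker genes as "like" a cell type. There was 1 library per genotype, so no difference below was tested against replicates, and every interval is a 95% interval that covers counting error only.

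Nephron progenitor-like nuclei were 1943 of the *Enl*-WT library and 4400 of the *Enl*-T1 library, and they came mostly from different clusters. Cluster 2 held 1864 *Enl*-WT and 90 *Enl*-T1 nuclei, cluster 0 held 4 and 3439, and cluster 9 held 75 and 871. The mean marker score, a log2 ratio to the median cluster, was 0.82 in cluster 2, 0.49 in cluster 0 and 0.43 in cluster 9. In the whole class the 8 nephron progenitor markers summed to 429.9 CPM in *Enl*-WT and to 335.0 CPM in *Enl*-T1, where CPM are counts scaled to a total of 1000000. The 8 early nephron epithelium markers summed to 259.7 and 360.4 CPM, so the *Enl*-T1 progenitor-like nuclei had less of the first list and more of the second. All 16 markers had an open region in both libraries. None of the markers of the class was among the 10 leading genes of clusters 0, 2 or 9, and cluster 0 took its name only with a lead of 0.1 over the next lineage, a limit lowered from 0.2 after it had stayed unnamed. With 0.2, the class held 1939 *Enl*-WT and 961 *Enl*-T1 nuclei. In a coarser clustering (resolution 0.5), 4292 *Enl*-T1 and 27 *Enl*-WT nuclei formed a cluster that scored highest as early nephron epithelium (0.53) and stayed unnamed, and 100 *Enl*-T1 nuclei remained in the progenitor-like class beside 2007 of *Enl*-WT. Within the class, genotype and cluster cannot be told apart. Stroma-like nuclei numbered 2922 and 4748, of which cluster 7 held 1 *Enl*-WT and 1050 *Enl*-T1 nuclei. Ureteric epithelium-like nuclei numbered 949 and 1873, endothelial-like nuclei 756 and 607, nephron epithelium-like nuclei 1720 and 232, and podocyte-like nuclei 696 and 4.

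Peaks were called in each library separately, and peaks that overlapped were joined into shared regions. The 10 genes and the 2 kb before them held 91 shared regions, of which 62 lay in introns, 14 touched exons, 12 lay at an annotated start and 3 were upstream. *Tcf7l2* had 24 of them, *Tcf7l1* 23, *Lgr5* 12 and *Dkk1* 1. The sequences below are the central 300 bases of 5 regions whose accessibility differed by more than 2-fold between the libraries in progenitor-like nuclei, and the 250 bases before the starts of *Axin2* and *Lef1*, the feedback target and the factor that the results turn on. All are read on the plus strand of GRCm38 (mm10), which is also the strand of *Axin2*, *Lef1* and *Tcf7l2*, and the promoters were taken from RefSeq annotation of that build. Capitals mark a match to CCATAAA, a posterior HOX motif, or to TCANGTTTC, the motif of Six2 and its relatives, on either strand.
*Axin2*, upstream region 2.5 kb before the start, chr11:108917730-108918029: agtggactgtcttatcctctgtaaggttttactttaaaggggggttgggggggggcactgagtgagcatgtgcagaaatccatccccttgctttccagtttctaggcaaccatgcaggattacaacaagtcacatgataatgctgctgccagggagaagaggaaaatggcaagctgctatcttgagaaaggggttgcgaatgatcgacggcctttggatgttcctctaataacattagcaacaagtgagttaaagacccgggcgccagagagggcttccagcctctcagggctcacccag
*Axin2*, before the start, chr11:108920099-108920348: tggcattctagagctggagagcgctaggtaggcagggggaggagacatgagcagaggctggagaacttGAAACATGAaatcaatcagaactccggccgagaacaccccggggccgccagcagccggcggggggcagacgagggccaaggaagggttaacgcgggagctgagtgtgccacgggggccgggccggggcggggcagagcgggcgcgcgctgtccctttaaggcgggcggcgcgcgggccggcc
*Lef1*, before the start, chr3:131110073-131110322: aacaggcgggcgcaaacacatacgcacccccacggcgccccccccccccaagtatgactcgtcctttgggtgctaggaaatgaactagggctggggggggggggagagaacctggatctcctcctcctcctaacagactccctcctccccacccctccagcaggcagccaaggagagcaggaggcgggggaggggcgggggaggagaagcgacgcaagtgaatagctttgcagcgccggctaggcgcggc
*Tcf7l1*, intron, 92.3 kb after the start, chr6:72696808-72697107: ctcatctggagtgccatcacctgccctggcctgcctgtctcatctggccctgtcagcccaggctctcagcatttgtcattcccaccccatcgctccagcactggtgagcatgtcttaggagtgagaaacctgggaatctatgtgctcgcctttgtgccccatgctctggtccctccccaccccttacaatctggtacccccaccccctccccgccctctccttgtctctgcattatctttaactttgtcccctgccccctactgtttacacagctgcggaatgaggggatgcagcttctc
*Tcf7l1*, intron, 99.1 kb after the start, chr6:72689974-72690273: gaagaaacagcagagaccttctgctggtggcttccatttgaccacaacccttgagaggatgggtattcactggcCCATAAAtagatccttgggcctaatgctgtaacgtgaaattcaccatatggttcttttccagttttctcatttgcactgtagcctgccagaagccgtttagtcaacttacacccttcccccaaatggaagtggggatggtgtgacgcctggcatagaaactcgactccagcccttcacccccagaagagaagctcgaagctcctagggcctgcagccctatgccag
*Tcf7l2*, intron, 17.4 kb after the start, chr19:55759087-55759386: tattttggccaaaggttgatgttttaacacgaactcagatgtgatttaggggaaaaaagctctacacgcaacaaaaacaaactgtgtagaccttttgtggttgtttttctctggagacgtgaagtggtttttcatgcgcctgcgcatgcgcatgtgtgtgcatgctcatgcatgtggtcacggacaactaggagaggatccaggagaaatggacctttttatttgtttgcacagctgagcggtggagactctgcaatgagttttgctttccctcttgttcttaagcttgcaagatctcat
*Tcf7l2*, intron, 56.1 kb after the start, chr19:55797733-55798032: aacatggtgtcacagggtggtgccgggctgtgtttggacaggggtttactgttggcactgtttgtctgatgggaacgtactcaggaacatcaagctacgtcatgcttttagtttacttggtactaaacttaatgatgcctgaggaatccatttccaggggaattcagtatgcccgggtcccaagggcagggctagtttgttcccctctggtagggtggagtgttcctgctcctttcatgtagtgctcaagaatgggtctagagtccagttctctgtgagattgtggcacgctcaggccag

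Taken over the whole gene, 1 of the 10 genes differed by more than 1.5-fold between genotypes in progenitor-like nuclei, and it was *Lef1*. Over all 16332 genes with at least 200 counts, 1.61% were past 1.5-fold higher and 2.11% past 1.5-fold lower in *Enl*-T1, so a single gene of 10 stands near that background. The median log2 ratio of the 10 genes was -0.13, against 0.01 for all genes. A gene's value is the sum of its shared regions, in CPM of all shared regions of that class and library.

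*Lef1*, which encodes a factor that binds β-catenin and activates its targets, had 48.7 CPM (45.0 to 52.5) in progenitor-like nuclei of *Enl*-WT and 77.9 CPM (74.1 to 81.8) in those of *Enl*-T1. The log2 ratio was 0.68 (0.55 to 0.81). The intervals of the libraries did not overlap. In nephron epithelium-like nuclei, the committed tubule lineage, *Lef1* went from 61.4 CPM in the *Enl*-WT library to 101.7 CPM over the 232 *Enl*-T1 nuclei, with a log2 ratio of 0.73 (0.42 to 1.02). Cluster 12, which held 533 of these *Enl*-WT and 192 of these *Enl*-T1 nuclei, had 86.7 and 115.7 CPM, a log2 ratio of 0.42 (0.08 to 0.74). Outside the nephron lineage the libraries were level over whole classes. The *Lef1* log2 ratio was 0.00 (-0.16 to 0.16) in stroma-like nuclei. It was 0.03 (-0.21 to 0.28) in the ureteric epithelium-like class and 0.08 (-0.33 to 0.49) in the endothelial-like one. Cluster 11, a ureteric epithelium-like cluster, differed, with 29.5 CPM over 169 *Enl*-WT and 47.5 CPM over 602 *Enl*-T1 nuclei. Its log2 ratio of 0.69 (0.11 to 1.30) was past 1.5-fold. Clusters 5 and 8 of that class had 0.07 (-0.47 to 0.63) and 0.05 (-0.30 to 0.40).

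The size of the *Lef1* difference depended on which progenitor-like nuclei were compared. *Enl*-T1 nuclei of cluster 0 against *Enl*-WT nuclei of cluster 2 gave 81.8 and 48.7 CPM, and those of cluster 9 gave 62.7 CPM, a log2 ratio of 0.36 (0.13 to 0.59). The gene was past 1.5-fold in 8 of 14 alternative settings, counting that without a count minimum, which leaves gene ratios unchanged. Inside cluster 9, the 75 *Enl*-WT nuclei had 37.8 CPM, below both, and the log2 ratio was 0.73 (0.02 to 1.53). Inside cluster 2, the 90 *Enl*-T1 nuclei had 37.3 CPM, and the log2 ratio was -0.39 (-1.22 to 0.34). The few *Enl*-T1 nuclei that clustered with the *Enl*-WT progenitors thus did not have the higher *Lef1* level of cluster 0. They gave only 31 *Lef1* counts, and their interval overlaps that of cluster 9. The early nephron epithelium marker sum moved with *Lef1*, as given above, and its part in the *Lef1* ratio was not tested. With the regions of these genes included in the clustering, or with peaks called in 1 library added, *Lef1* was not past 1.5-fold.

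Over the whole class, the other TCF factors were lower or level in *Enl*-T1 progenitor-like nuclei. *Tcf7l1* had 301.9 CPM (292.7 to 311.3) in *Enl*-WT, 222.5 CPM (216.1 to 229.1) in *Enl*-T1 and a log2 ratio of -0.44 (-0.50 to -0.38) that stopped short of 1.5-fold. Inside cluster 2 the *Tcf7l1* direction turned, with 302.3 CPM in *Enl*-WT and 361.0 CPM over the 90 *Enl*-T1 nuclei and a log2 ratio of 0.26 (0.01 to 0.49), while inside cluster 9 it was -0.34 (-0.60 to -0.07). *Tcf7* had 69.1 and 52.1 CPM, a log2 ratio of -0.41 (-0.54 to -0.28). *Tcf7l2* had 211 and 217.3 CPM, a log2 ratio of 0.04 (-0.03 to 0.11). Of all genes tested in this class, 4.21% had a lower ratio than *Tcf7l1* and 4.96% a lower ratio than *Tcf7*, so both sat near the low edge of the distribution. *Lef1* lay at the other edge, with a ratio above that of 98.9% of genes.

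The peak at the main *Tcf7* start was 1972 bp wide in the *Enl*-WT calls and 785 bp wide in those of *Enl*-T1, so the *Tcf7* sums covered unequal stretches of DNA. Over peaks matched in both libraries, *Tcf7* had a log2 ratio of -0.32 (-0.93 to 0.30) in progenitor-like and 0.13 (-0.41 to 0.68) in stroma-like nuclei, and a lower level could not be shown at this depth. *Lef1* and *Tcf7l1* kept their values over matched peaks, with 0.77 (0.63 to 0.92) and -0.47 (-0.54 to -0.40).

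**Figure D1:**
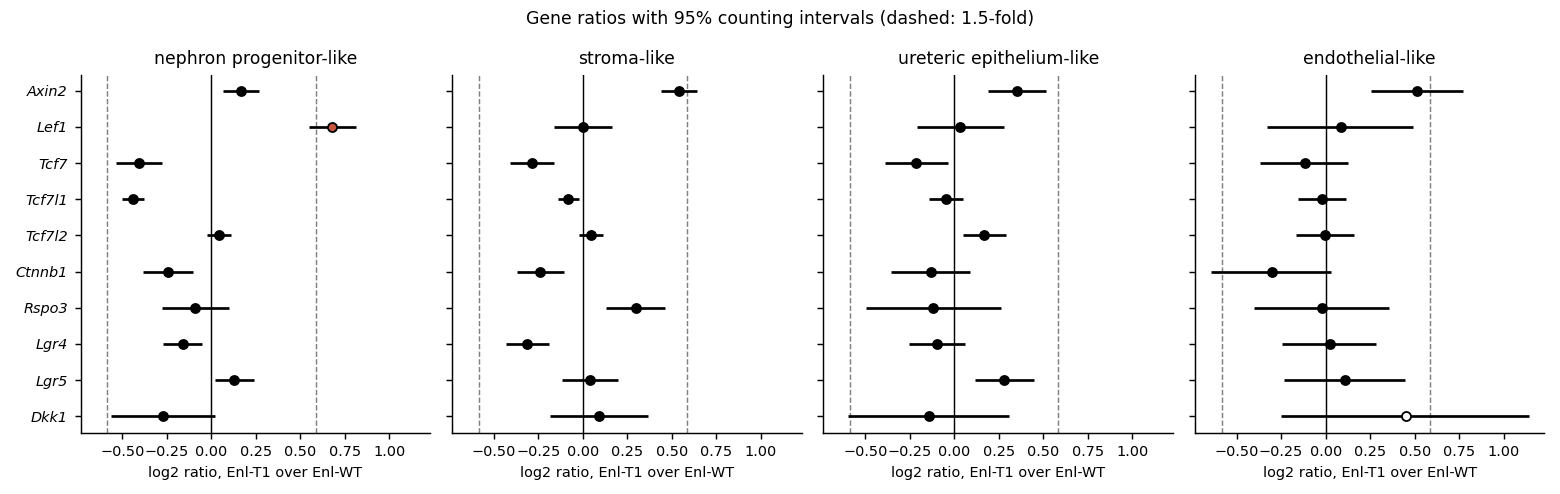
Log2 ratio of accessibility, *Enl*-T1 over *Enl*-WT, for each of the 10 genes in 4 classes of nuclei. Points are ratios of CPM over the shared regions of a gene, bars are 95% counting intervals from 1 library per genotype, and dashed lines mark 1.5-fold. The open point, *Dkk1* in endothelial-like nuclei, has under 200 counts, and *Lef1* in progenitor-like nuclei, at 0.68, is the filled point past the upper line.

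*Axin2*, a scaffold of the β-catenin destruction complex and itself a Wnt target, had 93.5 and 105.0 CPM in *Enl*-WT and *Enl*-T1 progenitor-like nuclei, a log2 ratio of 0.17 (0.07 to 0.27). In stroma-like nuclei it had 73.0 and 106.1 CPM, a log2 ratio of 0.54 (0.44 to 0.64), just under 1.5-fold. Ureteric epithelium-like nuclei gave a log2 ratio of 0.35 (0.19 to 0.51), and endothelial-like nuclei one of 0.51 (0.25 to 0.77). *Axin2* was thus higher in *Enl*-T1 in each of the 4 classes, those outside the Cre domain included. The peak at its start, however, was 1080 bp wide in the *Enl*-WT calls and 1920 bp wide in those of *Enl*-T1. Over matched peaks, which leave that start peak out, the log2 ratio was 0.01 (-0.21 to 0.24) in stroma-like nuclei and -0.69 (-0.88 to -0.51), past 1.5-fold lower, in progenitor-like nuclei. The direction of the *Axin2* sum in progenitor-like nuclei thus turned with the peaks counted, and the width of its start peak moved with the higher values.

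*Dkk1*, a secreted inhibitor of the pathway, had a single region, at its start. Progenitor-like nuclei had 13.1 CPM (11.2 to 15.1) in *Enl*-WT, 10.8 CPM (9.43 to 12.3) in *Enl*-T1, and the log2 ratio of -0.27 (-0.56 to 0.02) spanned 0. In stroma-like nuclei it had 11.7 and 12.5 CPM. In endothelial-like nuclei its 155 counts were under the minimum of 200. A difference in *Dkk1* was not detectable at this depth.

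*Ctnnb1* encodes β-catenin, which is controlled mainly through protein stability, and it was the flattest of the 10 genes over the *Enl*-WT classes, at 47.4 to 59.1 CPM. It had 53.4 and 45.1 CPM in *Enl*-WT and *Enl*-T1 progenitor-like nuclei, and its log2 ratio was -0.24 (-0.39 to -0.10) there and -0.24 (-0.37 to -0.11) in stroma-like nuclei. Its start peak was 1680 bp wide in the *Enl*-WT calls and 1103 bp wide in those of *Enl*-T1. Over matched peaks the log2 ratio was 0.07 (-0.39 to 0.54) in progenitor-like nuclei, and in stroma-like nuclei it turned to 0.73 (-0.05 to 1.54), both from the 1 matched region. In these classes the small lower value was thus seen only with the start peak counted.

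Among the amplifiers, *Rspo3*, a secreted ligand of the LGR receptors, had 29.7 and 27.9 CPM in progenitor-like nuclei, a log2 ratio of -0.09 (-0.28 to 0.10). Inside cluster 2 the log2 ratio was -1.29 (-2.92 to -0.05), over 10 *Enl*-T1 counts. In stroma-like nuclei it had 30.1 and 37.0 CPM, a log2 ratio of 0.30 (0.13 to 0.46). *Lgr4*, a broadly used R-spondin receptor, had log2 ratios of -0.16 (-0.27 to -0.05) in progenitor-like and -0.31 (-0.43 to -0.19) in stroma-like nuclei, with start peaks of 1424 and 909 bp. *Lgr5*, the receptor known as a stem cell marker in the gut and present in distal nephron precursors of the kidney, had 79.7 and 87.2 CPM in progenitor-like nuclei, a log2 ratio of 0.13 (0.02 to 0.24), and 73.6 and 89.4 CPM in ureteric epithelium-like nuclei, a log2 ratio of 0.28 (0.11 to 0.45). In nephron epithelium-like nuclei *Lgr5* had 86.6 and 124.6 CPM, a log2 ratio of 0.53 (0.25 to 0.79), and *Lgr4* 115.3 and 79.9 CPM, a log2 ratio of -0.53 (-0.87 to -0.21). The libraries fill that class from different clusters. Inside cluster 12, *Lgr5* had a log2 ratio of 0.43 (0.10 to 0.75) and *Lgr4* one of -0.34 (-0.72 to 0.03), which spans 0.

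No gene of the 10 was past 1.5-fold in stroma-like nuclei, where 0.981% of genes were higher and 0.74% lower. The same held in ureteric epithelium-like nuclei, with 0.787% and 0.497% of genes past the threshold, and for the 9 genes with enough counts in endothelial-like nuclei, with 1.05% and 0.908%. The medians of the 10 genes were 0.02, -0.07 and -0.00 in these classes, next to -0.00, -0.02 and -0.02 for all genes tested.

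Single regions were read next, against a threshold of 2-fold. In progenitor-like nuclei, 78 of the 91 regions had at least 200 counts, of which 5 were past 2-fold higher and 6 past 2-fold lower in *Enl*-T1. Over all 75586 regions tested, 4.73% were past 2-fold higher and 4.14% past 2-fold lower. The regions past 2-fold lay in *Tcf7l1* (4, all lower), *Tcf7l2* (3 higher and 1 lower), *Lef1*, *Lgr5* (1 higher each) and *Axin2* (1 lower). The median over the 78 regions was -0.08, against 0.00 for all regions. No member region was past 2-fold in stroma-like nuclei, where 67 were tested and 1.61% of all regions were higher and 1.05% lower.

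**Figure D2:**
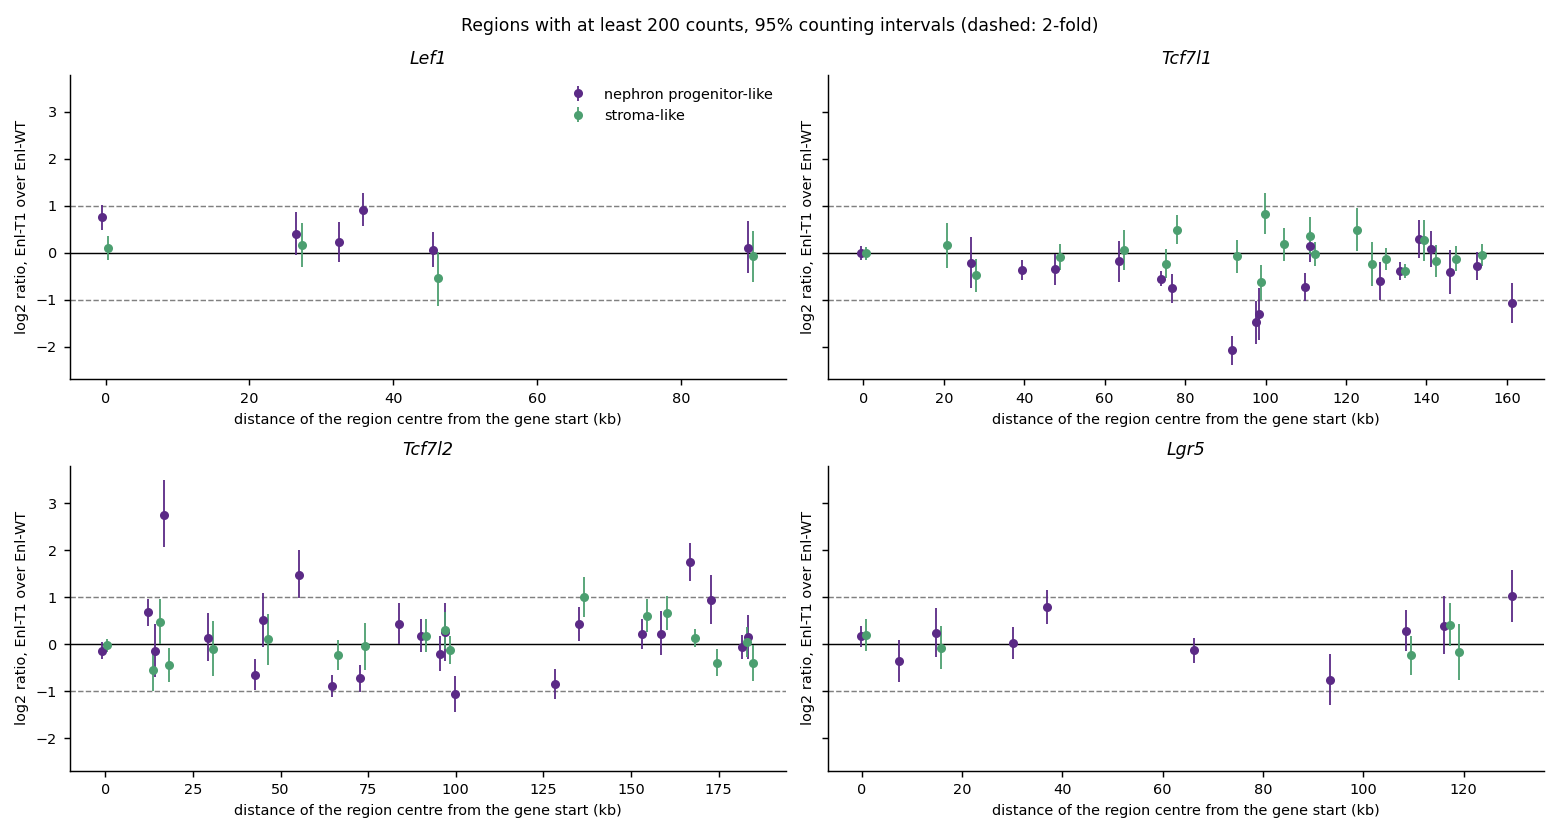
Log2 ratio of accessibility, *Enl*-T1 over *Enl*-WT, of regions with at least 200 counts against the distance of its centre from the gene start in kb, for *Lef1*, *Tcf7l1*, *Tcf7l2* and *Lgr5*. Purple points are progenitor-like and green points stroma-like nuclei, bars are 95% counting intervals, and dashed lines mark 2-fold. The *Tcf7l1* start stays at -0.00 while a region 92.3 kb into the gene reaches -2.07, and *Tcf7l2* regions spread from -1.06 to 2.74.

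In *Tcf7l1* the start did not differ, and regions far inside the gene did. The start region had 44.2 CPM in both libraries, a log2 ratio of -0.00 (-0.15 to 0.15). The intron region 92.3 kb after the start, chr6:72696484-72697431, had 645 counts (23.8 CPM) in *Enl*-WT against 232 (5.65 CPM) in *Enl*-T1, with a log2 ratio of -2.07 (-2.39 to -1.76). In *Enl*-WT this region was highest in progenitor-like nuclei, and no other class passed 9.93 CPM. In *Enl*-T1 the progenitor-like value lay within the 1.90 to 12.8 CPM of the other classes. Its sequence, given above, held none of the motifs searched.

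Of the other *Tcf7l1* regions past 2-fold, that at 99.1 kb, chr6:72689842-72690406, had 5.42 and 2.21 CPM, a log2 ratio of -1.29 (-1.86 to -0.74), and it is the one with the HOX match in capitals above. That at 98.1 kb had 8.41 and 3.02 CPM, with peaks of 1366 and 612 bp. That at 161.9 kb touches an exon and had 8.26 and 3.97 CPM, with peaks of 1264 and 814 bp. The regions at 98.1 and 161.9 kb thus came from peaks of unequal width, while those at 92.3 and 99.1 kb were matched. Over all 19 *Tcf7l1* regions tested the log2 ratios ran from -2.07 to 0.29 with a median of -0.39, and none was past 2-fold higher. The most open intron region, 74.5 kb after the start, had 49.5 and 33.9 CPM, a log2 ratio of -0.55 (-0.70 to -0.39).

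*Tcf7l2* regions moved both ways, while the gene sum over shared regions stayed level. Peaks called in 1 library alone are not in that sum. Over the alternative settings the log2 ratio of the gene ran from -0.05 to 0.40. The intron region 17.4 kb after the start, chr19:55758800-55759674, had 39 counts (1.44 CPM) in *Enl*-WT against 396 (9.64 CPM) in *Enl*-T1 progenitor-like nuclei, with a log2 ratio of 2.74 (2.07 to 3.50), the highest of the 78. In *Enl*-WT it was most open in interstitial stroma-like nuclei, at 8.61 CPM, and in *Enl*-T1 it had 10.9 CPM in nephron epithelium-like and 6.83 CPM in interstitial stroma-like nuclei. A region at 167.5 kb that touches an exon, chr19:55908929-55909790, had 4.72 and 15.7 CPM in progenitor-like nuclei, a log2 ratio of 1.74 (1.35 to 2.15). It too was most open in interstitial stroma-like nuclei, at 26.0 CPM and 29.2 CPM in the libraries. Both regions thus had, in *Enl*-T1 progenitor-like nuclei, values nearer to those of the stroma than in *Enl*-WT. The 8 interstitial stroma markers, all with open regions, summed to 158.2 CPM in *Enl*-WT and 153.0 CPM in *Enl*-T1 progenitor-like nuclei, against 418.4 and 440.0 CPM in interstitial stroma-like nuclei, so the list as a whole was not higher where the regions were.

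The third *Tcf7l2* region past 2-fold higher, in the intron 56.1 kb after the start at chr19:55797401-55798364, had 3.06 and 8.47 CPM, a log2 ratio of 1.47 (0.97 to 1.99). Its *Enl*-WT value was highest in nephron epithelium-like nuclei, at 8.69 CPM, and lay between 1.13 and 4.81 CPM in every other class. In stroma-like nuclei it had 1.73 and 3.37 CPM, inside 2-fold. The region past 2-fold lower, 100.5 kb after the start, had 9.96 and 4.77 CPM over peaks of 1142 and 823 bp. Regions at 65.5 and 129.1 kb came close, with log2 ratios of -0.89 and -0.85. The start region itself had 34.3 and 31.2 CPM, a log2 ratio of -0.14 (-0.31 to 0.04).

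In *Lef1* the log2 ratios of all 9 regions were above 0, and 7 had enough counts. The start region had 12.4 and 20.9 CPM in progenitor-like nuclei, a log2 ratio of 0.76 (0.49 to 1.02) over peaks of 920 and 931 bp. The region 36.1 kb in had 7.01 and 13.2 CPM, a log2 ratio of 0.91 (0.57 to 1.26).

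At *Axin2*, the start and the upstream region went opposite ways in progenitor-like nuclei. The upstream region reaches only the edge of the 2 kb before the gene. Its *Enl*-T1 peak lies outside that stretch, yet the region is counted in the *Axin2* sums over shared regions. The upstream region, chr11:108917336-108918423, had 513 counts (18.9 CPM) in *Enl*-WT against 303 (7.37 CPM) in *Enl*-T1, with a log2 ratio of -1.36 (-1.66 to -1.06). In *Enl*-WT no other class passed 8.87 CPM, and in *Enl*-T1 the progenitor-like value was within the 1.03 to 8.82 CPM of the others. The start region had 47.7 and 72.8 CPM, a log2 ratio of 0.61 (0.48 to 0.75), with the unequal peak widths given above. The intron regions at 5.1 and 10.1 kb had log2 ratios of -0.13 and -0.10, with intervals that span 0.

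*Lgr5* had 1 region past 2-fold, at an annotated alternative start 130.1 kb after the first, chr10:115457171-115458135, with 2.80 and 5.67 CPM and a log2 ratio of 1.02 (0.48 to 1.58). That region was past 2-fold in 7 of 12 alternative settings. The main *Lgr5* start had 19.1 and 21.5 CPM, a log2 ratio of 0.17 (-0.06 to 0.40). In ureteric epithelium-like nuclei, where 39 member regions were tested and 0.597% of all regions were past 2-fold higher and 0.308% lower, the region past 2-fold was in *Tcf7l1*, 138.7 kb after the start. It had 4.82 and 10.5 CPM, a log2 ratio of 1.12 (0.52 to 1.75). None of the 15 member regions tested in endothelial-like nuclei was past 2-fold, next to 0.0919% of all regions higher and 0.832% lower.

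The regions past 2-fold were also read in each pair of progenitor-like clusters. Both *Enl*-T1 clusters, against *Enl*-WT cluster 2, gave log2 ratios for the *Tcf7l2* region at 17.4 kb (2.83 in cluster 0 and 3.03 in cluster 9), the *Tcf7l2* region at 167.5 kb (1.74 and 2.21), the *Tcf7l1* region at 92.3 kb (-2.22 and -2.16) and the *Axin2* upstream region (-1.41 and -1.60) past 2-fold. The clusters parted at the *Tcf7l2* region at 56.1 kb (1.59 and 0.64) and the *Tcf7l1* regions at 161.9 kb (-1.43 and -0.12) and 99.1 kb (-1.57 and -0.53). These values share the *Enl*-WT nuclei of cluster 2, so they are not independent of each other. At resolution 0.5, with 100 *Enl*-T1 nuclei in the class and few counts, the *Tcf7l1* region at 92.3 kb had a log2 ratio of 0.25 and the *Axin2* upstream region one of 0.32.

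**Figure D3:**
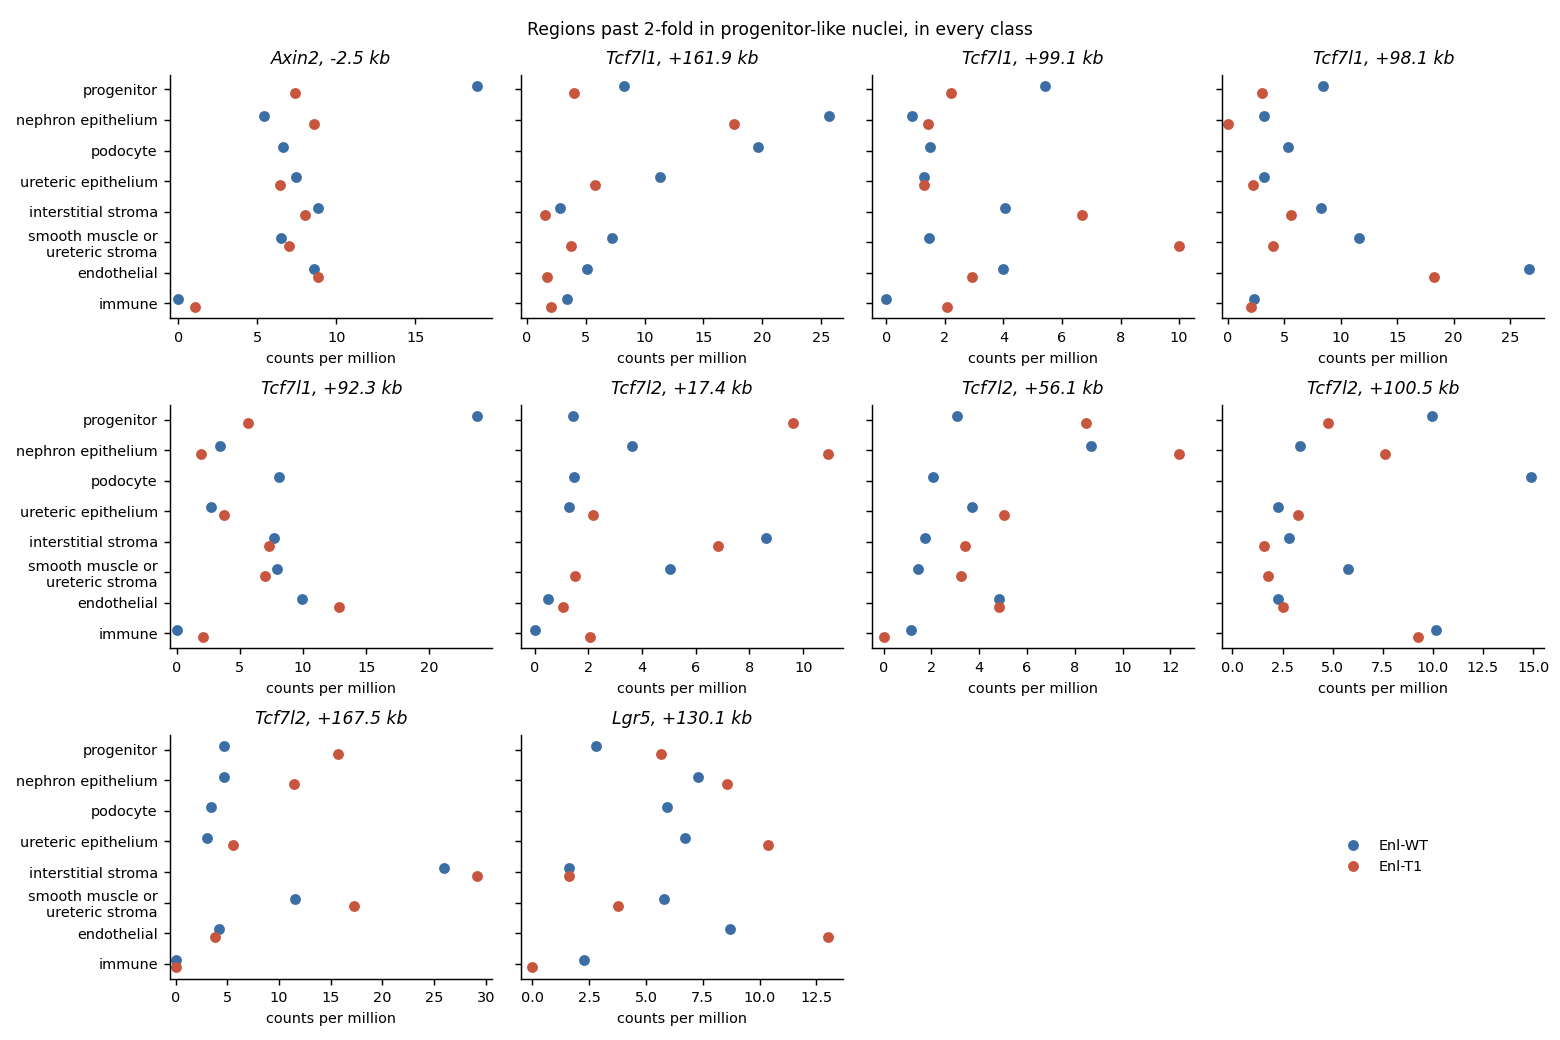
Accessibility in CPM of 10 of the regions past 2-fold in progenitor-like nuclei, in each class with at least 50 nuclei, for *Enl*-WT (blue) and *Enl*-T1 (red). Points are single libraries without error bars, and podocyte-like nuclei have no *Enl*-T1 point. The *Axin2* upstream region and the *Tcf7l1* region at 92.3 kb stand out in *Enl*-WT progenitors, at 18.9 and 23.8 CPM.

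The motifs were sought on both strands in the central 300 bases of every shared region. CTTTGAT, the TCF/LEF motif, was found in 5 of the 91 member regions (5.49%) and in 4.78% of 110665 shared regions. CCATAAA, for posterior HOX factors, was in 6 (6.59%) and in 5.50% of all, and TCANGTTTC, for Six2, was in 1 (1.10%) and in 1.86% of all. The shares are close to those of all regions. None of the 11 regions past 2-fold held the TCF/LEF or Six2 letters, and 1 held the HOX letters, the *Tcf7l1* region at 99.1 kb. The regions with the TCF/LEF letters were *Lef1* at 26.9 kb (log2 ratio 0.41, -0.04 to 0.87) and 89.7 kb (0.11, -0.44 to 0.67), *Tcf7l2* at 90.7 kb (0.18, -0.17 to 0.54) and 173.7 kb (0.93, 0.43 to 1.47) and *Lgr5* at 93.9 kb (-0.75, -1.29 to -0.22), so they lay on either side of 0.

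Of the 10 genes, 8 had RefSeq promoters, in 14 entries of 300 bases each. The Six2 letters were in 1 entry, that of *Axin2*, shown above in capitals as the reverse complement, and in 1.08% of 32851 promoters. Neither of the other motifs was found in these entries, next to 3.73% of all promoters with the TCF/LEF and 2.75% with the HOX letters. No match says only that these letters were not in the window.

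Over the classes of *Enl*-WT, *Tcf7l1* and *Axin2* were highest in progenitor-like nuclei. *Axin2* had 93.5 CPM (88.4 to 98.8) there, 73.7 to 77.3 CPM in ureteric epithelium-, nephron epithelium-, podocyte- and interstitial stroma-like nuclei, whose intervals overlap, and 21.5 CPM in immune-like nuclei. *Tcf7l1* had 301.9 CPM in progenitor-like nuclei, with an interval that overlaps those of endothelial-like (285.8 CPM) and smooth muscle or ureteric stroma-like nuclei (281.9 CPM), and 72.3 CPM in immune-like nuclei. In *Enl*-T1 the *Tcf7l1* order changed, with endothelial-like nuclei first at 281.9 CPM and progenitor-like nuclei, at 222.5 CPM, behind 4 of the other 6 classes. *Tcf7l2* was 211 CPM in *Enl*-WT progenitor-like nuclei, its interval overlapping that of the smooth muscle or ureteric stroma-like nuclei at 199.5 CPM, and lowest in immune-like nuclei at 117.5 CPM.

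*Lef1* was highest in *Enl*-WT podocyte-like nuclei, at 88.6 CPM, then in nephron epithelium-like nuclei at 61.4 CPM and in progenitor-like nuclei at 48.7 CPM, with intervals that do not touch. In *Enl*-T1, where 4 podocyte-like nuclei were too few to read, nephron epithelium-like nuclei at 101.7 CPM and progenitor-like nuclei at 77.9 CPM led, and the next class had 38.3 CPM. *Lgr4* and *Lgr5* also led in *Enl*-WT nephron epithelium-like nuclei. *Lgr4* had 115.3 CPM there and 107.5 CPM in podocyte-like nuclei, with overlapping intervals, and *Lgr5* had 86.6 CPM there and 79.7 CPM in progenitor-like nuclei, also overlapping. *Dkk1* had 20.9 CPM (18.4 to 23.7) in nephron epithelium-like nuclei, where the other classes had 13.1 CPM or less with only the interval of the 104 smooth muscle or ureteric stroma-like nuclei reaching it, and no count in the 98 *Enl*-WT immune-like nuclei, where up to 8.34 CPM is allowed.

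*Rspo3* was highest in endothelial-like nuclei, at 37.4 CPM (32.2 to 43.3), then in interstitial stroma-like nuclei at 30.2 CPM, whose interval it overlaps, and 16.9 CPM in ureteric epithelium-like nuclei. *Tcf7* was highest in the smooth muscle or ureteric stroma-like and endothelial-like nuclei, at 99.8 and 91.7 CPM, which overlap. Set per kb of peak, so that genes can be compared, the *Enl*-WT progenitor-like level was 22.0 CPM per kb for *Axin2*, 20.8 for *Ctnnb1*, 13.9 for *Dkk1*, 13.3 for *Lgr4* and 11.9 for *Tcf7l1*. It was 8.13 CPM per kb for *Tcf7l2*, 7.88 for *Tcf7*, 7.56 for *Rspo3*, 6.72 for *Lgr5* and 5.31 for *Lef1*. *Lef1* was thus last in *Enl*-WT progenitors. It had 10.2 CPM per kb in *Enl*-T1, over 7651 bp of peak against 9164 bp in *Enl*-WT. Each library is divided by its own peak length, so values per kb are not compared between libraries.

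**Figure D4:**
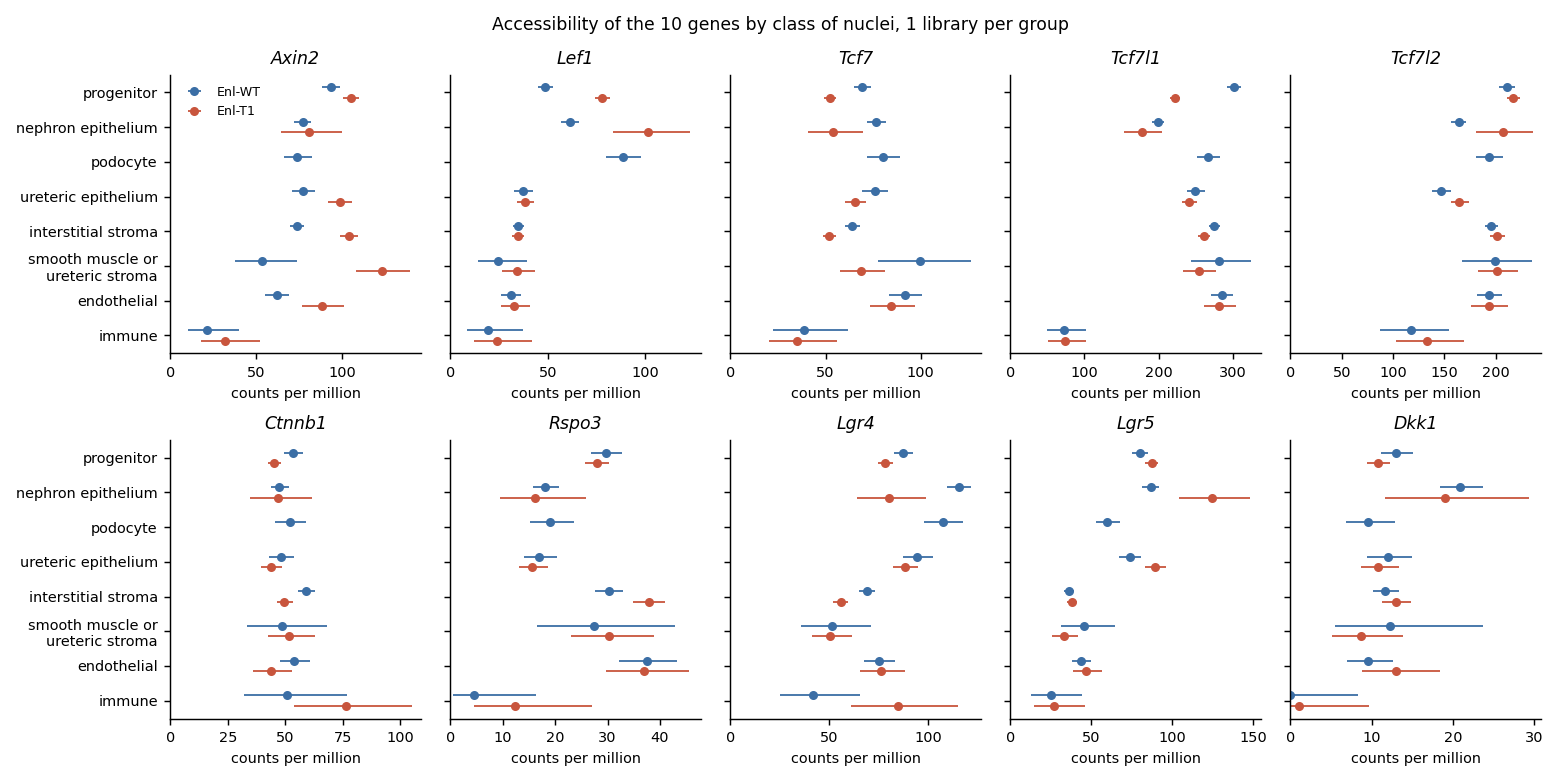
Accessibility of each of the 10 genes in CPM, by class of nuclei, for *Enl*-WT (blue) and *Enl*-T1 (red). Points are 1 library each, bars are exact 95% Poisson intervals on fragments, and podocyte-like nuclei have no *Enl*-T1 point. *Lef1* in the progenitor and nephron epithelium rows and *Tcf7l1* in the progenitor row are among the points whose bars do not overlap between the libraries.

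Genes with the most similar profiles were sought for the members with the widest range over classes. Likeness was Pearson's r of the log2 of CPM plus 1, which gives a value to *Dkk1* in immune-like nuclei without a count. It was taken over 15 points, the 8 *Enl*-WT and 7 *Enl*-T1 classes, which share libraries and depth. For *Dkk1* they were *Ube2ql1* and *Armcx2* (0.97 each) and *Pcdhga11* (0.97). For *Rspo3* they included *Igf2*, an insulin-like growth factor, and *Gm49394* (0.95 each). For *Lef1* they were *Ms4a2* (0.96), *Cfap69* (0.94) and *Rgs7* (0.93), of which *Ms4a2* never passed 8.56 CPM. These are descriptions, and genes with few counts can match by noise.

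The wider pathway was read from a list of 63 other genes, of which 61 had enough counts in progenitor-like nuclei. There, 1 was past 1.5-fold higher and 2 lower, next to the 1.61% and 2.11% of all genes, and the list's median was -0.01 against 0.01. *Fzd10*, a Wnt receptor, had 19.2 and 37.0 CPM, a log2 ratio of 0.94 (0.74 to 1.15). *Rspo1*, an R-spondin ligand of nephron progenitors, had 104.6 and 66.6 CPM, a log2 ratio of -0.65 (-0.76 to -0.54). *Tle2*, a Groucho-type corepressor that TCF factors recruit, had 41.5 and 25.5 CPM, a log2 ratio of -0.70 (-0.88 to -0.53). Of these, over matched peaks, only *Rspo1* was past 1.5-fold.

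By role, the 7 ligands, 2 secretion factors, 12 cytoplasmic components, 3 targets and the 10 secreted inhibitors and their receptors with enough counts had no gene past 1.5-fold in progenitor-like nuclei. *Wnt9b* had 20.4 and 26.7 CPM (log2 ratio 0.38) and *Wnt4* 63.9 and 63.6 CPM (log2 ratio -0.01), both inside 1.5-fold. None of 61 pathway genes was past 1.5-fold in stroma-like nuclei. In ureteric epithelium-like nuclei 1 of 58 was, *Tle2*, with 38.7 and 19.7 CPM and a log2 ratio of -0.97 (-1.26 to -0.68). In endothelial-like nuclei 1 of 53 was, *Rnf43*, a ligase that removes Frizzled and the target of the R-spondin axis, with 22.6 and 34.7 CPM and a log2 ratio of 0.62 (0.19 to 1.04).

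Peaks called in 1 library alone were not compared, because the counts of the other library at those places were not analysed here. The 10 genes had 131 peaks in *Enl*-WT, of which 70.2% overlapped an *Enl*-T1 peak, and 109 peaks in *Enl*-T1, of which 85.3% overlapped an *Enl*-WT peak. The shares for all peaks were 70.0% and 86.6%. The 39 *Enl*-WT-only peaks held 12.2% of the *Enl*-WT counts of the genes, and the 16 *Enl*-T1-only peaks held 7.01% of those of *Enl*-T1.

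The most open *Enl*-T1-only peaks lay in *Tcf7l2*. The peak 170.5 kb after the start, chr19:55911885-55912798, had 17.6 CPM in *Enl*-T1 progenitor-like and 4.77 CPM in stroma-like nuclei, here scaled to all peaks of that library. The peak 9.0 kb after the start, chr19:55750392-55751237, had 14.4 and 4.22 CPM. Both were thus more open in progenitor-like than in stroma-like nuclei, and the former lies near the region at 167.5 kb that was past 2-fold higher. The *Enl*-T1-only peak 7.9 kb after the *Tcf7l2* start, chr19:55749310-55750088, went the other way, with 5.80 and 10.1 CPM. *Tcf7l2* had 7 *Enl*-T1-only peaks and 4 *Enl*-WT-only peaks. Of the *Enl*-WT-only peaks, the strongest in progenitor-like nuclei lay in *Tcf7l1*, 113.0 kb after the start, with 11.9 CPM against 5.61 CPM in stroma-like nuclei.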

How the data were processed

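Per the file headers and the labels, the authors aligned the snATAC-seq reads to mm10 (GRCm38) with Cell Ranger ATAC 2.1.0, called peaks per library and deposited raw counts per peak and barcode. Of the values above 0, 80.1% in *Enl*-WT and 81.2% in *Enl*-T1 equal 2, so intervals used counts divided by 2. Barcodes with 2000 to 100000 counts were kept. The study's filters on fragments, blacklisted regions and start-site enrichment were not applied, and doublets were kept except in an alternative (0.8% per 1000 barcodes).

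Peaks overlapping by 1 bp were joined into 110706 shared regions. A gene's value was the sum over shared regions in its body and 2 kb upstream (GENCODE M21), in CPM of the class and library. Both libraries were clustered together without integration by latent semantic indexing (components 2 to 30) and the Leiden algorithm (leidenalg 0.10.2, resolution 1, 15 neighbours) on regions open in at least 0.5% of nuclei, without 357 regions of the pathway. A cluster was named if its mean marker score was at least 0.4, 3 markers were raised by 0.5 log2 at 5 CPM, and the lead over the next lineage was 0.1. Analyses used python 3.11.15, numpy 2.4.6 and scipy 1.17.1.

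Genes past 1.5-fold and regions past 2-fold, with at least 200 counts in both libraries together, were counted. With 1 library per genotype no test was run. Ratios have exact binomial and levels exact Poisson intervals (95%). All 10 genes are reported, with every pathway gene past 1.5-fold and the regions past 2-fold. 1 of these regions and 1 gene of similar profile are not reported here. *Wnt9b* and *Wnt4* were named after their values were seen. The genes, the pathway list, the markers and the naming limits were chosen with earlier results of these data known. Alternatives changed the scaling, the peaks counted, the count minima, the clustering, the naming lead and the clusters compared. The script was tested on simulated data.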

Additional observations from a re-analysis of the deposited data

Results flagged for a closer look

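At 2 regions the direction differed between nephron progenitor-like and stroma-like nuclei, with intervals on opposite sides of 0. In both cases the difference was not tested because each genotype had 1 library. The share of all shared regions that differ in this way was not counted, so the 2 regions are not read as particular to these genes. The *Tcf7l1* intron region 99.1 kb after the start, which holds the HOX letters, had a log2 ratio of *Enl*-T1 to *Enl*-WT of -1.29 (-1.86 to -0.74) in progenitor-like and 0.83 (0.40 to 1.27) in stroma-like nuclei. The *Tcf7l2* intron region 17.4 kb after the start had 2.74 (2.07 to 3.50) in progenitor-like and -0.44 (-0.81 to -0.08) in stroma-like nuclei.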

How the results depend on the processing

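No paired analysis was possible because each genotype had 1 library. Of 40 ratios of single genes, 15 kept their sign in every alternative that gave them a value, which were 14 in progenitor-like nuclei and 12 in each of the other classes, and 436 of 500 alternative values lay inside the interval of the reported ratio. Some of the 500 could not move. The setting without a count minimum leaves gene ratios unchanged, and a lead of 0.2 kept the same nuclei in stroma-, ureteric epithelium- and endothelial-like classes. The share inside the interval is thus no measure of robustness.

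In progenitor-like nuclei, where 1 of the 10 genes was past 1.5-fold, the number was 0 with all peaks, a minimum of 5000 counts per barcode, a lead of 0.2, the member regions in the clustering, or cluster 9 over cluster 2, and 2 with matched peaks (*Axin2* lower, *Lef1* higher) or start-site regions (*Axin2* and *Lef1*). At resolution 0.5 the gene past 1.5-fold was *Rspo3* (-1.47). The 11 regions past 2-fold became 7 with matched peaks, a minimum of 5000, resolution 0.5 or a lead of 0.2, and 5 with the member regions in the clustering. The 3 pathway genes became 10 at resolution 0.5, 6 with a lead of 0.2, 1 with the member regions in the clustering and 6 for cluster 9 over cluster 2.

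In stroma-like nuclei, start-site regions gave 2 of the 10 genes (*Axin2*, *Tcf7*). Pathway genes past 1.5-fold there were 1 with equal weight per nucleus, all peaks or start-site regions and 2 with matched peaks, and member regions past 2-fold were 1 with equal weight, a minimum of 5000 or mutual nearest neighbours. In ureteric epithelium-like nuclei, start-site regions gave 1 of the 10 genes (*Tcf7*) and 3 pathway genes, all peaks 4 pathway genes, and no count minimum 6 member regions. In endothelial-like nuclei, 1 of the 10 genes passed with all peaks (*Rspo3*) and with start-site regions (*Axin2*), pathway genes were 2 with median of ratios scaling, 5 with all peaks, 3 with no minimum, 0 with start-site regions and 0 with a minimum of 5000, and member regions were 14 with no minimum.

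At resolution 0.5 the progenitor-like class held 2007 *Enl*-WT and 100 *Enl*-T1 nuclei, and 4292 *Enl*-T1 nuclei lay in an unnamed cluster that scored highest as early nephron epithelium. Log2 ratios turned there for the genes *Lef1* (-0.42), *Tcf7l1* (0.22), *Lgr4* (0.06), *Lgr5* (-0.19) and *Dkk1* (0.50). They also turned for a region inside *Lef1* (-0.53), the *Axin2* upstream region (0.32) and the *Tcf7l1* regions at 92.3 kb (0.25) and 99.1 kb (0.87). The *Tcf7l2* regions at 56.1 kb (-0.76) and 167.5 kb (-0.12) turned as well. The cause was not tested. The *Tcf7l2* region at 17.4 kb was past 2-fold in all 12 settings that gave it a value (1.79 to 3.03), the lowest from 5 *Enl*-T1 counts with an interval that spans 0. Over matched peaks *Ctnnb1* turned to 0.73 in stroma-like nuclei, and to 0.63 in those like ureteric epithelium, with intervals that span 0.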
